A study of Mus musculus with 4 samples.

Results

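The response of wild-type mouse cortical neurons to depolarization was described by setting 1 library of neurons kept in 50 mM KCl for 6 h against 1 library of neurons at the basal KCl level. Of the 22552 genes in the deposited table, 13248 reached 1 FPKM (fragments scaled by transcript length and by library size) in at least 1 of the 4 libraries of the series, and all 13248 were described, whether or not they differed. Both libraries came from primary neurons of E16.5 cortex plated on poly-L-ornithine and fibronectin. Per the labels, the treatment began on day 5 in vitro with 1 µM TTX, a blocker of voltage-gated sodium channels, and 100 µM APV, a blocker of NMDA receptors, and KCl followed on day 6. The same protocol text, blockers included, is given for the basal library. The other pair of libraries, basal and KCl, came from neurons with floxed Brg1 alleles and a BAF53bCre recombinase (cKO, genotype BAF53bCre Brg1F/F), which the labels describe with the same culture, blockers and KCl. Brg1 is an ATPase of the BAF chromatin remodelling complex, and BAF53b is a subunit of that complex made in neurons. Each group is 1 library, and the labels do not say how many embryos or cultures it holds. No difference given here therefore has a replicate check, and "higher" and "lower" describe these libraries alone.

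Raising extracellular KCl depolarizes the neuronal membrane and opens voltage-gated calcium channels. Calcium that enters activates kinases that phosphorylate CREB, a factor bound to the cyclic AMP response element (CRE), and the serum response factor, which binds the CArG box. The first genes to be transcribed encode transcription factors of the Fos, Egr, Nr4a and Npas4 families, which need no new protein to be switched on, and later genes encode secreted, synaptic and structural proteins. TTX and APV silence spontaneous firing beforehand, so that the basal state is low in activity.

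The deposited values summed to 306649 FPKM in the basal library and 330621 in the KCl library, and about 21450000 and 21950000 fragments were approximated from the steps between low values. Smarca4, the gene the labels call Brg1, had 34.0 FPKM in the basal library and 28.5 in the KCl library in wild type and at 10.5 and 10.4 in the cKO. Of 7 general neuronal markers, a list added after the values were seen, 6 lay within 2-fold between the wild-type libraries, among them Rbfox3 (33.8 and 38.1 FPKM), Snap25 (118 and 141) and Elavl3 (111 and 112). Tubb3 was the exception, as given below with the tubulins. Markers of other cells were present. The summed level of 21 astrocyte and radial glia genes was 2280 FPKM in basal and 3473 in KCl, that of 15 measured oligodendrocyte lineage genes 756 and 861, that of 16 microglia and macrophage genes 394 and 620, and that of 10 measured vascular and fibroblast genes 53 and 103. Of the endothelial genes, Pecam1, Cdh5 and Kdr stayed under 1 FPKM and Cldn5 was listed at 0 in both wild-type libraries, whereas Flt1 passed the filter (0.72 and 1.76), and all 4 erythroid genes in the table stayed under 1 FPKM. The table also lists Hmgcs1 at 0 and Gapdh, Ppia and Rpsa, genes that every cell uses, under 1 FPKM, so a value at or near 0 may be a failed estimate and is no sign of absence. In bulk RNA, fewer cells of a type and less RNA per cell cannot be told apart, which holds for every gene below.

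Most genes differed little. The log2 ratio of KCl to basal, taken after adding 1 FPKM to both values, had a median of -0.01 and an SD of 0.61 across the 13248 genes, and 74.5% of them lay within 1.5-fold. On this scale 672 genes (5.07%) were at least 2-fold higher with KCl and 439 (3.31%) at least 2-fold lower, so 8.39% lay past 2-fold either way. These shares of all genes are the background for every list count below, and small counts can lie near them. The upper tail was the longer one. At 4-fold or more 114 genes were higher and 20 lower, at 8-fold or more 34 were higher and 1 lower, and at 32-fold or more 4 were higher and none lower. The 672 higher genes together held 1.75% of the summed FPKM in basal and 5.41% with KCl, while the 439 lower genes held 2.62% and 0.870%.

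**Figure D1:**
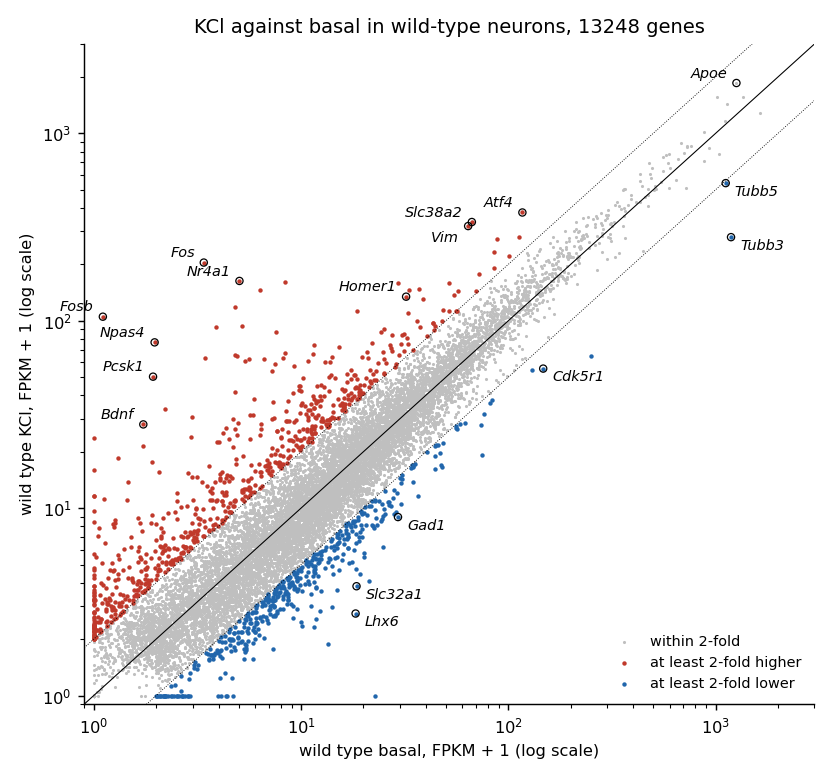
Each point is 1 of 13248 genes, with its level in the wild-type basal library on the x axis and in the wild-type KCl library on the y axis (FPKM plus 1, log scales). The solid line marks equal values and the dotted lines 2-fold: 672 genes lie at or above the upper dotted line, Fosb (0.11 and 104.1 FPKM) among the farthest, and 439 at or below the lower one, Lhx6 (17.3 and 1.74) among the farthest.

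The split between higher and lower genes depended on how the libraries were scaled to each other. As deposited, 60.5% of the genes past 2-fold were higher. The share was 50.2% after division by the column total, 24.3% with the KCl library centred on the ribosomal protein genes and 81.1% with it centred on the presynaptic genes, and the all-gene median under these was -0.10, -0.32 and 0.23. Of 325 genes chosen for naming, 168 lay past 2-fold, and 121 of these stayed past 2-fold under each of the 5 scalings tried. The scalings divided the KCl values by 0.83 to 1.29, too little to turn the sign of a gene past 2-fold, so kept signs are no check. Where a list's median turned sign under a scaling, that value is given beside it, and the other list medians given kept their sign under all 5. Genes just inside and just outside the size differed by little: Cdkn1b, a cell cycle inhibitor gene, counted as higher with 55.4 FPKM in basal and 112 in KCl, and Sbds, at 21.1 and 43.2, was just short of the size after 1 was added to both. On the other side Akap7 counted as lower at 33.2 and 16.1 FPKM, and Tia1 did not at 34.4 and 16.7.

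The genes of the AP-1 and ATF family, which encode leucine zipper transcription factors, held the largest ratios. Of 12 measured members 8 were at least 2-fold higher and none lower, and their median log2 ratio was 2.38 against -0.01 for all genes. Fosb had 0.11 FPKM in the basal library and 104.1 in the KCl library in wild type, and at 0.11 and 86.3 in the cKO. The wild-type ratio was 976 (95% counting interval 494 to 2054), the wide interval coming from about 9 fragments in basal. Fos stood at 2.40 and 203.4 FPKM, 84.9-fold higher (70.5 to 103.9), and was the most abundant factor of the list with KCl. Both KCl libraries lay above both basal libraries for Fosb and Fos. How many of all genes separate this way was not counted. Fosb and Fos were named with their ratios known, so the separation is no further check. Junb, one of the Jun proteins that pair with Fos proteins, went with them at 3.81 and 117 FPKM. Jun itself was already at 50.2 FPKM in basal and stood at 84.1 with KCl, within 2-fold, and Jund at 56.8 and 54.0. The Fos relatives Fosl2 (4.37 and 59.8 FPKM) and Fosl1 (listed at 0 in basal, 7.39 in KCl) and the small Maf gene Maff (1.20 and 32.6) were higher. Atf3, a stress-inducible repressor gene, stood at 3.27 and 12.8.

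Npas4 encodes a neuronal factor that is switched on by calcium entry and hardly by other stimuli. It had 0.97 FPKM in the basal library and 75.7 in the KCl library, 78.3-fold higher (62.5 to 99.8), and at 0.69 and 58.4 in the cKO. The 3 Nr4a genes, which encode orphan nuclear receptors, were higher together with a median log2 ratio of 4.52. Nr4a1 stood at 4.05 and 162 FPKM, Nr4a2 at 5.36 and 145 and Nr4a3 at 7.38 and 160, so the 3 reached nearly the same level. In the cKO pair they were higher with KCl too, at 2.58 and 88.9, 9.23 and 102, and 6.27 and 94.4 FPKM. These KCl levels lay below those of wild type, a difference between single libraries that was not tested. Of the Egr factors and their Nab corepressors, 5 of 6 were at least 2-fold higher, with a median log2 ratio of 1.91. Egr1 stood at 3.71 and 28.8 FPKM, Egr2 at 0.22 and 4.13, Egr4 at 0.05 and 6.83 and Egr3 at 2.97 and 7.03. In FPKM these levels with KCl were below those of Fos, Fosb and the 3 Nr4a genes.

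The promoters of 6 genes are shown as chosen examples, several of which carry the CRE letters in full or in part. Fos, Npas4, Nr4a1 and Pcsk1 are among the 25 highest ratios, and Scg2 (29.3 and 74.1 FPKM) is a higher gene outside them. Other windows differ from these examples. Tnfrsf12a, Fosl2 and Gpr35, among the 25 highest, hold no CRE letters, and Gad2, Tubb4 and Gjd2, among the 25 lowest, hold the short form. Each line gives the 250 bases before the annotated start, 5′ to 3′ on the gene's own strand, from RefSeq (GRCm38.p6): Fos at chr12:85473640-85473889 (plus strand), Npas4 at chr19:4989972-4990221 (minus), Nr4a1 at chr15:101266596-101266845 (plus), Pcsk1 at chr13:75089607-75089856 (plus), Scg2 at chr1:79440027-79440276 (minus) and, as a gene that was lower with KCl, Slc32a1 at chr2:158610508-158610757 (plus). Capitals mark letters found by search on both strands: the full CRE TGACGTCA, its short form TGACG (or CGTCA on the other strand), the Egr site GCGNGGGCG and the TATA box TATAAA. The AP-1 site TGANTCA and the CArG box were searched too and are not in these windows. A full CRE contains the short form on both strands.
Fos: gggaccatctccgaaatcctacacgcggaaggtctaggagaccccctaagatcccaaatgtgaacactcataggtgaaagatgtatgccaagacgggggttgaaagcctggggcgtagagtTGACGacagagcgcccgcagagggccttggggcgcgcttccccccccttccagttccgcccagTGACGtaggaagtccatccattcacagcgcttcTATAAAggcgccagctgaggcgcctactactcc
Npas4: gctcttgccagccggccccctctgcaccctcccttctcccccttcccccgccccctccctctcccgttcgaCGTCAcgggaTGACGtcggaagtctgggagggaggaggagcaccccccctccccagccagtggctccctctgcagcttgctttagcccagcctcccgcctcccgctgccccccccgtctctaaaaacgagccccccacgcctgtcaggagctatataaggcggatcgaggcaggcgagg
Nr4a1: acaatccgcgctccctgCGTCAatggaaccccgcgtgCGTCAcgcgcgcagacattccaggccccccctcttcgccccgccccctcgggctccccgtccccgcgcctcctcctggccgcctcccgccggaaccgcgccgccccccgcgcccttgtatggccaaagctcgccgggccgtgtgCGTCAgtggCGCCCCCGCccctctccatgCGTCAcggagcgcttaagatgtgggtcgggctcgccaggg
Pcsk1: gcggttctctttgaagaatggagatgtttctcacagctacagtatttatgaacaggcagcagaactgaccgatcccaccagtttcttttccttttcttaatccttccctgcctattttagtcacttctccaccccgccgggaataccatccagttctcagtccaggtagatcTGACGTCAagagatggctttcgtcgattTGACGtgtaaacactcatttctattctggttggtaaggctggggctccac
Scg2: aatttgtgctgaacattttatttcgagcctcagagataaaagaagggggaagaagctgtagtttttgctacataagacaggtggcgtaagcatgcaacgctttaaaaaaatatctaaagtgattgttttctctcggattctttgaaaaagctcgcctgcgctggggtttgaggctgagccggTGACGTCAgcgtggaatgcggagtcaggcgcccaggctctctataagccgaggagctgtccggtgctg
Slc32a1: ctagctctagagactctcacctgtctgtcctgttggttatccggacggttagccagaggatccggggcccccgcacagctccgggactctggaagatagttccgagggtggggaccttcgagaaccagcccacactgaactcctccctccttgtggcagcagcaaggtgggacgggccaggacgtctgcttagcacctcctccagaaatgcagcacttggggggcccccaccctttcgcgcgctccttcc

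In these windows Pcsk1 and Scg2 held the full CRE, from 78 to 71 and from 68 to 61 bases before the start. Fos held the short form at 129 to 125 and at 66 to 62 bases before the start with a TATA box 33 to 28 bases before it, Npas4 held 2 short forms and Nr4a1 4 together with an Egr site. None of the searched letters occurred in the Slc32a1 window. Across genes, 9527 of the retained named genes had at least 1 promoter window, and 451 of these were at least 2-fold higher and 274 at least 2-fold lower. The full CRE was present for 3.15% of all 9527 genes, 6.43% of the higher genes (29 of 451) and 2.19% of the lower genes (6 of 274). At 4-fold or more it was present for 8.22% of the higher genes (6 of 73). A pair or more of short CREs was present for 8.23% of all genes, 14.9% of the higher, 23.3% of those at least 4-fold higher and 4.38% of the lower genes. Each full CRE counts as such a pair, so these shares include the full CREs and are no separate result. The AP-1 letters occurred for 5.29% of all genes, 9.98% of the higher and 5.11% of the lower, and the CArG box for 1.44%, 3.55% and 0.730%. For the Egr site the shares were 11.2%, 13.1% and 8.76%, and for the E-box letters CACGTG 9.99%, 10.9% and 8.03%. For the TATA box they were 7.83%, 11.1% and 8.76%. At least 1 short CRE was present for 30.9% of all genes (2946 of 9527), 35.5% of the higher and 24.8% of the lower. Full CREs, pairs of short CREs (full CREs included), AP-1, CArG and TATA letters were at higher shares in the windows of the higher genes than in all windows. Shares with at least 1 short CRE and with Egr or E-box letters differed less. Seen from the motif, 9.67% of genes with a full CRE and 4.57% of those without were at least 2-fold higher. Of the 25 genes with the highest ratios at 5 FPKM or more, 19 had a window and 15 of these held at least 1 short CRE, while of the 25 lowest 19 had a window and 3 held 1, beside the 30.9% of all genes given above. These are counts of letters in a fixed window, and no binding was measured.

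**Figure D2:**
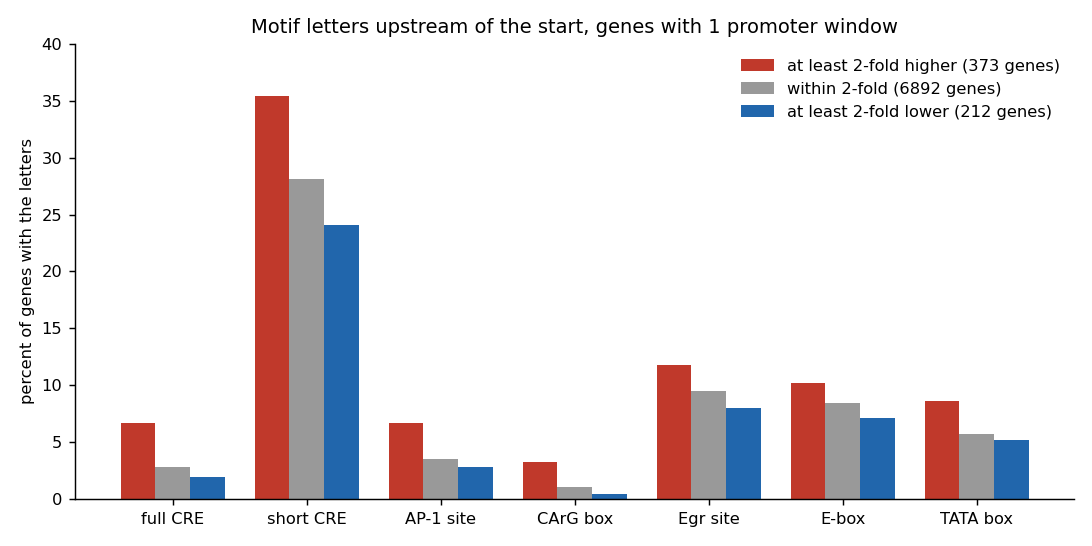
Bars give the percent of genes whose promoter window, the 250 bases before the start, holds each set of letters, for genes with exactly 1 window (373 at least 2-fold higher, 6892 within 2-fold, 212 at least 2-fold lower). The bars of the higher genes stand above those of the genes within 2-fold for all 7 sets, by the largest ratio for the CArG box and the full CRE and by the smallest for the Egr site, the E-box and the short CRE.

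Of 17 calcium-responsive and Kruppel-like factors, Npas4 included, 9 were higher and no member was lower (median log2 ratio 1.12). Klf4, a zinc finger factor of cell identity, had 0.31 FPKM in the basal library and 17.6 in the KCl library. Crem, which encodes the inducible CREB repressor ICER among its products, stood at 4.92 and 37.1, Nfil3 at 17.7 and 112 and Srf, the serum response factor gene itself, at 12.8 and 59.0. The MEF2 factors, which are regulated by calcium at the protein level, were not among the higher genes: Mef2c stood at 299 and 213 FPKM, and Mef2a and Mef2d also lay within 2-fold. Of 19 rapid response regulators 11 were higher and all 19 had a ratio above 0 as deposited, with a median of 1.35. Sik1, a kinase of CREB coactivators, led at 5.62 and 61.6 FPKM, followed by Gadd45b (1.95 and 23.0) and Gadd45g (6.49 and 58.0), genes of growth arrest and DNA demethylation, and Ier2 (7.16 and 62.1). Btg2 and Plk2, which are often counted as rapid response genes, stood at 6.76 and 7.06 FPKM and at 79.7 and 83.7.

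Genes that dampen MAP kinase signalling included 9 higher and no lower members among 17 (median log2 ratio 1.09). The phosphatase genes Dusp1 (9.79 and 60.0 FPKM), Dusp4 (2.93 and 21.5), Dusp6 (8.82 and 41.6), Dusp14 (4.66 and 22.5) and Dusp5 (0.09 and 2.98) and the Sprouty gene Spry4 (3.17 and 11.2) led the list. Dusp8 was the most abundant member and lay within 2-fold (71.3 and 99.9). Of the circadian clock genes 5 of 19 were higher and 1 lower, with a median of 0.31 that turned to -0.05 on centring to the ribosomal genes. Both activators were higher, Clock at 9.28 and 22.6 FPKM and Arntl at 11.7 and 28.0, and so were the repressor genes Per1 (9.81 and 21.7), Per2 (1.77 and 6.44) and Cry1 (10.7 and 29.6). Dbp, an output gene of the clock, was the only lower member, at 7.53 and 2.09, with 6.97 and 1.83 in the cKO.

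**Figure D3:**
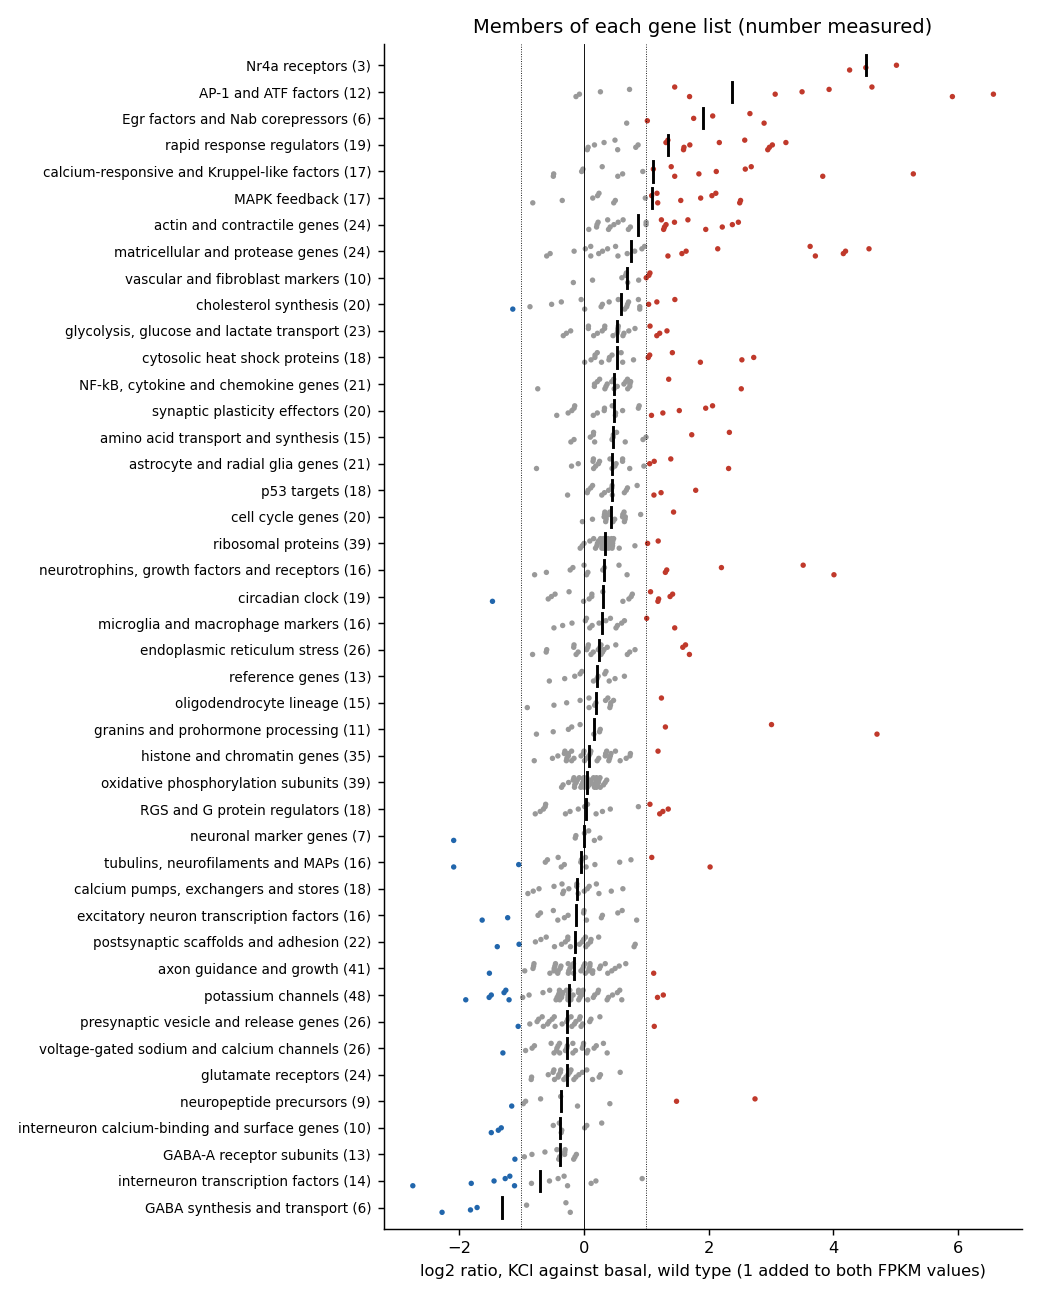
Each dot is a gene of the list named at the left (number measured in brackets) at its log2 ratio of KCl to basal in wild type, in red at 2-fold or more higher and in blue at 2-fold or more lower, and the bar is the list's median. The Nr4a (4.52) and AP-1 (2.38) lists lie at the top and the GABA synthesis (-1.32) and interneuron factor (-0.70) lists at the bottom, and 16 of the lists between change the sign of their median under at least 1 scaling.

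Secreted signals and the enzymes that make them formed a further group. Bdnf, the neurotrophin whose release depends on activity, had 0.73 FPKM in the basal library and 27.0 in the KCl library, 36.7-fold higher (28.9 to 47.7), and at 1.12 and 12.4 in the cKO. Other growth factor genes were higher as well: Hbegf, a ligand of the EGF receptor, at 6.61 and 86.2 FPKM, Nrn1 (neuritin) at 8.73 and 43.9 and Nrg1 (neuregulin) at 1.45 and 5.15. Together 5 of 16 measured members of this list were higher and none lower (median 0.32). The receptor gene Ntrk2, which encodes the BDNF receptor, stood at 128 and 113. Pcsk1, a convertase that cuts prohormones in dense-core vesicles, stood at 0.93 and 49.3 FPKM, 52.9-fold higher (43.4 to 64.9), and at 0.70 and 19.7 in the cKO. The related convertase gene Pcsk2 went the other way within 2-fold, at 19.6 and 11.2. Vgf, a secreted granin, stood at 7.33 and 66.2 and Scg2 at 29.3 and 74.1, while Chgb stood at 38.0 and 26.7, so 3 of the 11 granin and processing genes were higher. Their median of 0.16 turned to -0.20 on centring to the ribosomal genes. Among 9 measured neuropeptide precursors Npb (0.23 and 7.28 FPKM) and Adcyap1, which encodes PACAP (2.89 and 9.91), were higher, and Tac1, the substance P precursor, was lower (1.93 and 0.31). The interneuron peptides Sst (38.1 and 18.9) and Npy (13.9 and 8.23) stayed within 2-fold after 1 was added.

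Of 20 genes of synaptic plasticity 5 were higher and no member was lower (median 0.48). Homer1, a postsynaptic scaffold with a short activity-induced form, stood at 31.1 and 133 FPKM, and the table does not separate the forms. Ptgs2, the inducible cyclooxygenase, stood at 0.20 and 3.65, Nptx2, a secreted pentraxin that clusters AMPA receptors, at 1.21 and 5.39, Rgs2 at 9.74 and 24.9 and the protocadherin gene Pcdh8 at 43.3 and 93.0. Arc, whose mRNA is carried into dendrites, stayed low at 0.64 and 1.52 FPKM and did not reach 2-fold after 1 was added to both, and it stood at 0.44 and 2.41 in the cKO. Of 24 glutamate receptor genes none lay past 2-fold in either direction after 1 was added to both values, as deposited. On centring to the ribosomal genes 2 of 24 were lower. By the plain ratio the low genes Grik1 (2.72 and 1.08) and Grin2d (3.41 and 1.46) were 2.52-fold and 2.34-fold lower. The list's median was -0.27, 19 of 24 ratios were below 0, and the highest-expressed member, Gria2, stood at 130 and 109 FPKM. Of 22 measured postsynaptic scaffold and adhesion genes 2 were lower, Nrxn3 (12.5 and 4.15) and Dlg3 (33.6 and 15.8), with a median of -0.14 that turned to 0.12 on centring to the presynaptic genes. Of 26 presynaptic genes Sv2c was higher (1.64 and 4.79) and Syn2 lower (34.6 and 16.2), with a median of -0.27.

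A group of matricellular, protease and cytoskeletal genes, many of them targets of serum response factor in other cells, held several of the 25 highest ratios. Of 24 measured matricellular and protease genes 9 were higher and none lower (median 0.76). Tnfrsf12a, the receptor of TWEAK, had 2.91 FPKM in the basal library and 92.1 in the KCl library, 31.7-fold higher (24.7 to 41.8), Ctgf at 2.46 and 62.5, Cyr61 at 4.22 and 92.5 and Thbs1 (thrombospondin 1) at 3.93 and 63.7. Ctgf, Cyr61 and Thbs1 encode secreted proteins that are also made by glia and vascular cells. In the cKO pair Thbs1 stood at 8.03 and 217 and Ctgf at 7.16 and 194. Of 24 actin and contractile genes 10 were higher, none was lower and all 24 ratios were above 0 as deposited (median 0.87). Cnn2 stood at 3.04 and 21.5 FPKM, Tagln at 3.48 and 22.3, Acta2 (smooth muscle actin) at 2.58 and 15.7, Itga5 at 1.63 and 9.18 and Actn1 at 10.8 and 36.5, whereas Actb, the main actin gene, stood at 882 and 1022. Flnc (filamin C, 0.47 and 12.8) and Cd44, a hyaluronan receptor gene (3.78 and 64.8), were also among the 25 highest ratios. Beside these, 3 of 10 measured vascular and fibroblast markers were higher, Rgs5 (2.62 and 6.55), Fn1 (19.0 and 40.2) and Col4a1 (10.3 and 21.6), with a median of 0.69 and a summed level of 53 and 103 FPKM. That count was 2 of 10 when scaled by the median ratio and 0 of 10 by the upper quartile, by the column total or on centring to the ribosomal genes. Whether these cells took part in the result was not tested.

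Of 21 genes of astrocytes and radial glia 4 were higher and no member was lower (median 0.45). Vim, an intermediate filament gene, stood at 63.0 and 319 FPKM, Id1 at 26.2 and 70.4, Id3 at 100.4 and 221 and Nes at 15.2 and 32.7. The defining astrocyte genes Gfap (168 and 201), Aqp4 (76.9 and 87.8) and Aldh1l1 (29.1 and 32.5) lay within 2-fold. In terms of FPKM gained, glial genes were among the largest: Apoe stood at 1260 and 1856 and Fabp7 at 1013 and 1559. In the oligodendrocyte lineage Ugt8a was higher (15.9 and 38.9), Gpr17 stood at 73.6 and 38.8 and Mbp at 121 and 161, and the list's median of 0.19 turned to -0.16 on centring to the ribosomal genes. Microglia and macrophage markers were higher in 2 of 16 cases, Lyz2 (84.0 and 232) and Csf1r (12.5 and 26.1), while C1qa stood at 32.1 and 34.4 and Cx3cr1 at 15.8 and 13.7. Their median of 0.30 turned to -0.03 on centring to the ribosomal genes. Of 20 cell cycle genes 1 was higher, Ccnd2 (30.3 and 83.9), which is near the 5.07% of all genes. Mki67, which marks dividing cells, stood at 5.19 and 8.79.

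Stress and metabolic genes were higher in part. Of 18 cytosolic heat shock genes 6 were higher and none lower (median 0.53), and the higher ones were Hspb8 (10.5 and 65.5 FPKM), its partner Bag3 (4.22 and 18.1), Cryab (2.74 and 9.02), Hspb1 (0.15 and 1.36) and the near-identical pair Hspa1b (0.26 and 7.36) and Hspa1a (0.83 and 2.80), between which reads may be split. The abundant chaperone gene Hsp90ab1 stood at 574 and 764. Of 26 endoplasmic reticulum stress genes 3 were higher: Atf4 at 116 and 377, Hspa5 (the chaperone BiP) at 86.9 and 271 and Dnajb9 at 20.2 and 62.6. Chac1, a target of ATF4, stood at 7.59 and 3.86, and the median of 0.24 turned to -0.11 on centring to the ribosomal genes. Slc38a2, an amino acid transporter gene, was among the 10 largest gains in FPKM (65.7 and 336). Of 15 genes of amino acid transport and synthesis, a list added after the values were seen, it and the cystine transporter gene Slc7a11 (7.79 and 28.2) were higher, whereas Asns, another target of ATF4, stood at 45.5 and 40.7. Fuel transport was higher in 4 of 23 cases in the glycolysis list (median 0.53), all 4 being transporters, the glucose carriers Slc2a3 (26.3 and 67.9) and Slc2a1 (10.4 and 22.7) and the lactate carriers Slc16a1 (8.97 and 22.2) and Slc16a3 (4.66 and 11.7). The count was 3 by the upper quartile or the column total and 0 on centring to the ribosomal genes. The enzyme gene Aldoa stood at 206 and 299. None of 39 oxidative phosphorylation genes lay past 2-fold, their ratios ranged from -0.36 to 0.37, and their median of 0.05 turned to -0.02 by the upper quartile, -0.06 by the column total and -0.31 on centring to the ribosomal genes. In cholesterol synthesis 3 of 20 measured genes were higher, Stard4 (35.4 and 99.2), Cyp51 (84.4 and 191) and Sc5d (69.0 and 143), and Mvd was lower (82.5 and 36.9), with a median of 0.60. Among p53 targets Pmaip1 (3.06 and 13.1), Gdf15 (0.44 and 2.40) and Cdkn1a (18.2 and 40.8) were higher, 3 of 18, with a median of 0.45. NF-kB, cytokine and chemokine genes were higher in 2 of 21 cases (median 0.49), Il11 (0.14 and 5.53) and Nfkbia (9.24 and 25.3).

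Lower with KCl were first the genes of inhibitory interneurons. All 6 genes of GABA synthesis and transport had a ratio below 0, 3 of them at least 2-fold lower, with a median of -1.32 that lay between -1.66 and -1.06 under the scalings. Slc32a1, which loads GABA into vesicles, had 17.5 FPKM in the basal library and 2.83 in the KCl library, 6.19-fold lower (5.27 to 7.31), and at 12.9 and 2.22 in the cKO. Of the 2 enzymes that make GABA, Gad1 stood at 28.4 and 7.96 and Gad2 at 8.11 and 1.58. GABA uptake and breakdown genes, which glia also use, lay within 2-fold, with Slc6a11 at 73.9 and 60.4 and Abat at 26.3 and 22.5. Both KCl libraries lay below both basal libraries for the 3 lower genes, which were named with their ratios known. How many of all genes separate this way was not counted.

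Of 14 measured interneuron transcription factors 6 were lower and none higher, with a median of -0.70. Lhx6, which specifies interneurons born in the medial ganglionic eminence, had 17.3 FPKM in the basal library and 1.74 in the KCl library, 9.97-fold lower (8.33 to 12), and at 16.7 and 2.19 in the cKO. Maf, a factor of the same lineage, stood at 19.2 and 4.77, Dlx1 at 13.9 and 4.48, Sp9 at 4.52 and 1.3 and Dlx6 at 1.45 and 0.14. Sox6, which acts after Lhx6, stood at 16.8 and 19.4 FPKM and Dlx2 at 5.11 and 3.91. Prox1 had the highest ratio of the list (1.91 and 4.56), a log2 ratio of 0.94 after 1 FPKM was added. The antisense gene Dlx1as (10.6 and 1.33) overlaps Dlx1, and strand is not stated, so reads of the pair cannot be separated. Of 10 measured calcium-binding and surface genes of interneurons 3 were lower, the potassium channel gene Kcnc2 (6.50 and 1.68), Cxcr7 (5.5 and 1.51) and the neuregulin receptor gene Erbb4 (8.37 and 2.74), with a median of -0.38. Calb2 (18.9 and 19.1), Reln (26.9 and 27.8) and Cxcr4 (8.64 and 10.8), which mark interneurons or Cajal-Retzius cells, had ratios just above 0, while Htr3a (-0.49), Kcnc1 (-0.39), Calb1 (-0.36) and Npy1r (-0.35) lay below 0 and within 2-fold on the log2 scale. All 13 genes of the GABA-A receptor list, the scaffold gene Gphn included, which encode proteins of the receiving side, had ratios below 0 as deposited, with Gabrb2 past 2-fold (29.8 and 13.3) and a median of -0.39.

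**Figure D4:**
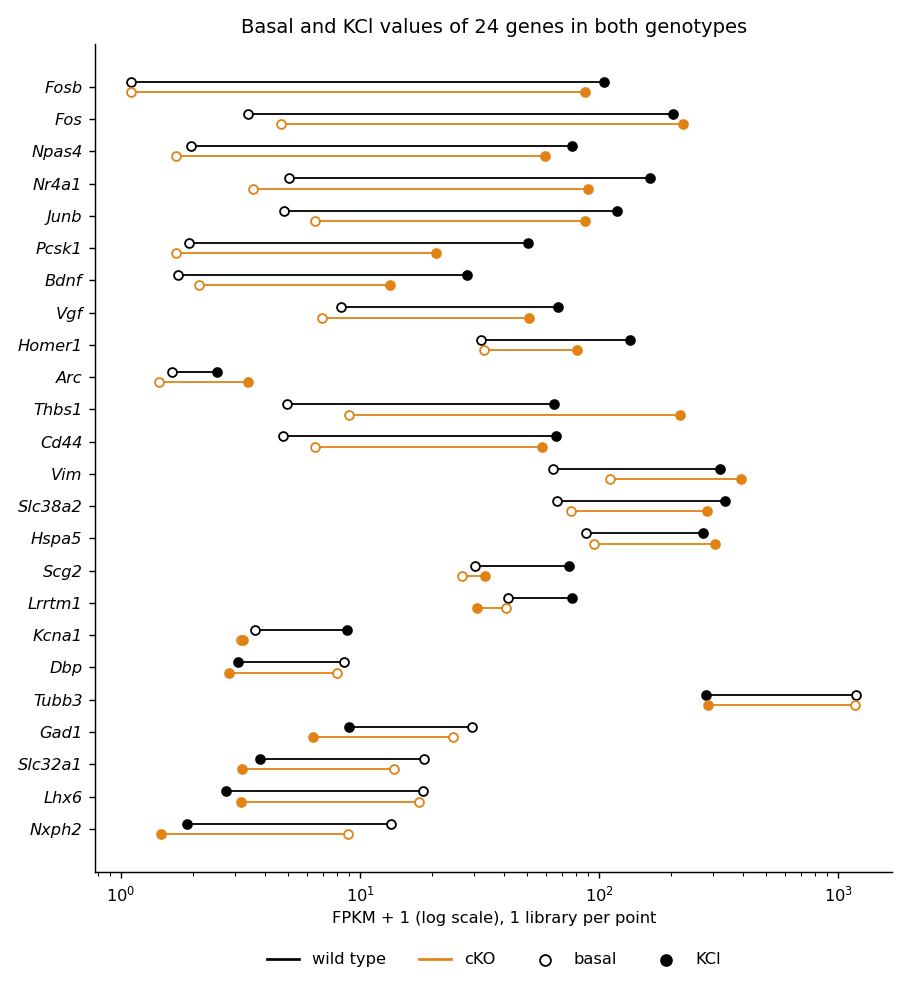
Basal (open) and KCl (filled) values of 24 genes, 1 library per point, in wild type (black) and cKO (orange), on a log axis of FPKM plus 1. In wild type the filled point lies to the right for the genes from Fosb to Kcna1 and to the left for those from Dbp to Nxph2, and the cKO pair runs the same way except for Lrrtm1 (39.7 to 29.7 FPKM) and, with almost no distance, Kcna1 (2.16 to 2.24).

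Among excitatory neuron factors 2 of 16 were lower, Bcl11b, which specifies deep-layer projection neurons (10.7 and 2.79), and Neurod1 (14.1 and 5.48), with a median of -0.13 that turned to 0.14 on centring to the presynaptic genes. Neurod6 (112 and 113), which marks most cortical projection neurons, lay within 2-fold. Potassium channel genes were lower in 6 of 48 cases and higher in 2, with a median of -0.23 that came to 0.00 on centring to the presynaptic genes. Kcnv1, a silent subunit gene, stood at 10.1 and 1.99 FPKM, Kcnip1 at 13.1 and 3.93, Kcng1 at 7.46 and 2.48 and Kcnip2 at 6.23 and 2.04. The subunits that form a delayed rectifier and an inward rectifier, Kcna1 (2.63 and 7.79) and Kcnj2 (6.68 and 16.4), were the higher ones. Of 26 sodium and calcium channel genes Scn2b was lower (6.42 and 2.02), with a median of -0.27. Centred on the ribosomal genes, 4 of the 26 were lower. None of 18 calcium pump, exchanger and store genes lay past 2-fold as deposited, and 3 were lower on that centring. The highest of their ratios was that of Atp2a2, the endoplasmic calcium pump gene (126 and 195 FPKM), and the lowest that of Slc8a1, a sodium-calcium exchanger gene (30.6 and 16, a log2 ratio of -0.90).

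Tubulin genes had the largest losses in FPKM. Tubb3, the neuronal beta-tubulin gene, had 1187 FPKM in the basal library and 278 in the KCl library, 4.26-fold lower (4.18 to 4.35), and at 1175 and 284 in the cKO. Tubb5 stood at 1118 and 542, and Tubb4 at 249 and 64.0. Tubb2b (1036 and 778) and the alpha-tubulin gene Tuba1a (1646 and 1281) were lower by less than 2-fold. The near-identical copy Tubb2a-ps2 (720 and 509) can share reads with Tubb2a (342 and 228). Tubb6 was higher (6.44 and 29.3), so the family did not move as one. Stmn2 (1104 and 1166), Mapt (542 and 552) and Dcx (261 and 253), which encode proteins that bind microtubules, and the neurofilament gene Nefm (32.9 and 37.3) stayed near basal, and the list of tubulins, neurofilaments and associated proteins had a median of -0.04 that turned to 0.22 on centring to the presynaptic genes. Other large losses were Enc1, an actin-binding protein gene (448 and 235), and Cdk5r1, the activator of the neuronal kinase Cdk5 (146 and 54.6), the latter named after its values were seen. Axon guidance and growth genes lay mostly within 2-fold, 39 of 41, with Efnb2 higher (50.8 and 112), Rtn4r, the Nogo receptor gene, lower (21.4 and 6.83), and a median of -0.17 that turned to 0.10 on centring to the presynaptic genes.

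The remaining genes of the lower tail shared no list. Nxph2, which encodes a neurexin ligand, had 12.4 FPKM in the basal library and 0.89 in the KCl library, 14.1-fold lower (10.6 to 19.2), the lowest ratio among named genes at 5 FPKM or more. Tbc1d30 stood at 20.3 and 3.11, Cdc42ep2 at 13.1 and 1.98, the gap junction gene Gjd2 at 9.11 and 1.35, Pnmal2 at 73.3 and 18.2 and Txnip, an inhibitor of thioredoxin and glucose uptake, at 17.4 and 3.71. Of the 25 lowest genes 24 were at least 2-fold lower in the cKO pair too, where 3.09% of all genes were. Txnip was the exception, at 13.5 and 6.39. Of the 25 highest, 24 were at least 2-fold higher in the cKO pair, where 4.41% of all genes were, and the exception was the pseudogene Pisd-ps1, at 0.0033 FPKM in wild-type basal and 8.65 with KCl, and at 0.07 and 0.0042 in the cKO. Its reads can be shared with its parent gene. Over all genes 380 of the 672 higher genes were higher in the cKO pair as well, which is 56.5% of the wild-type list and 65.1% of the cKO list, and 267 of the 439 lower genes, which is 60.8% and 65.1%.

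Beyond these lists, the share of genes past 2-fold differed with exon number, a comparison chosen after the values were seen. Gene models of another build (GENCODE M21) matched 98.9% of the retained genes. Among 11917 named genes with a model, 4.81% were at least 2-fold higher and 3.0% at least 2-fold lower. Of 312 genes whose longest transcript has 1 exon, 10.3% were lower and 6.73% higher, and of 580 genes with 2 exons 10.5% were lower and 10.9% higher. From 2 exons on, the share of lower genes was smaller in each class with more exons and reached 1.17% at 11 to 20 exons and 1.03% above 20, where 3.58% and 3.71% were higher. With only genes at 5 FPKM or more in a wild-type library the shares of lower genes were 11.2% at 1 exon and 0.874% above 20, so the gradient was also present at higher levels. Genes without introns that were lower included Tspyl3 (10.8 and 1.55 FPKM), Cecr6 (11.4 and 1.82), Pnmal2 and Maf. Transcript length, cut into 5 classes of equal size, held between 2.10% and 3.86% lower genes per class, and 5 classes of GC content between 2.56% and 3.27%, smaller ranges than for exon number. These classes overlap with level, since the median level of genes with 1 exon was 7.36 FPKM and that of genes with 11 to 20 exons 11.5 FPKM.

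A set of genes with zinc finger names (Zfp, Zscan and Zkscan, most of them encoding DNA-binding proteins) was lower in the median, again chosen after the values were seen. Of 336 such genes 47 (14%) were at least 2-fold lower and 4 higher, against 2.68% lower among 11581 genes with other names. The median log2 ratio of the 336 was -0.48 in wild type and -0.51 in the cKO. The set overlaps with the classes of few exons, since 213 of the 336 have 1 to 5 exons. In that range 17.8% of zinc finger names and 5.73% of 3122 other genes were lower. The share of lower genes among the 336 lay between 9.23% (centred on the presynaptic genes) and 30.7% (centred on the ribosomal genes) under the scalings. Their median lay between -0.27 and -0.76 in the same settings. There 262 and 1128 of all 13248 genes were lower, beside 439 as deposited. With 5 FPKM added in place of 1 the share of the 336 was 1.19%, and with 0.1 added 26.8%. Of all 13248 genes 78 and 838 were lower with these amounts. At a mean wild-type level under 5 FPKM 19.7% of the zinc finger names and 3.62% of the others were lower, and at 5 to 10 FPKM 12.2% and 4.30%. At 10 to 20 FPKM the shares were 9.38% and 2.74%. At 20 FPKM or more they were 3.13% and 0.925%, where the first share is 1 gene of 32. Examples are Zfp763 (14.2 and 3.68 FPKM), Zfp60 (23.7 and 7.78) and Zfp41 (15.8 and 5.15). Zfp184 was among the 4 higher ones (5.44 and 25.3), as was Zfp36 (2.24 and 7.24), which encodes an RNA-binding protein that promotes mRNA decay and no DNA-binding factor.

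**Figure D5:**
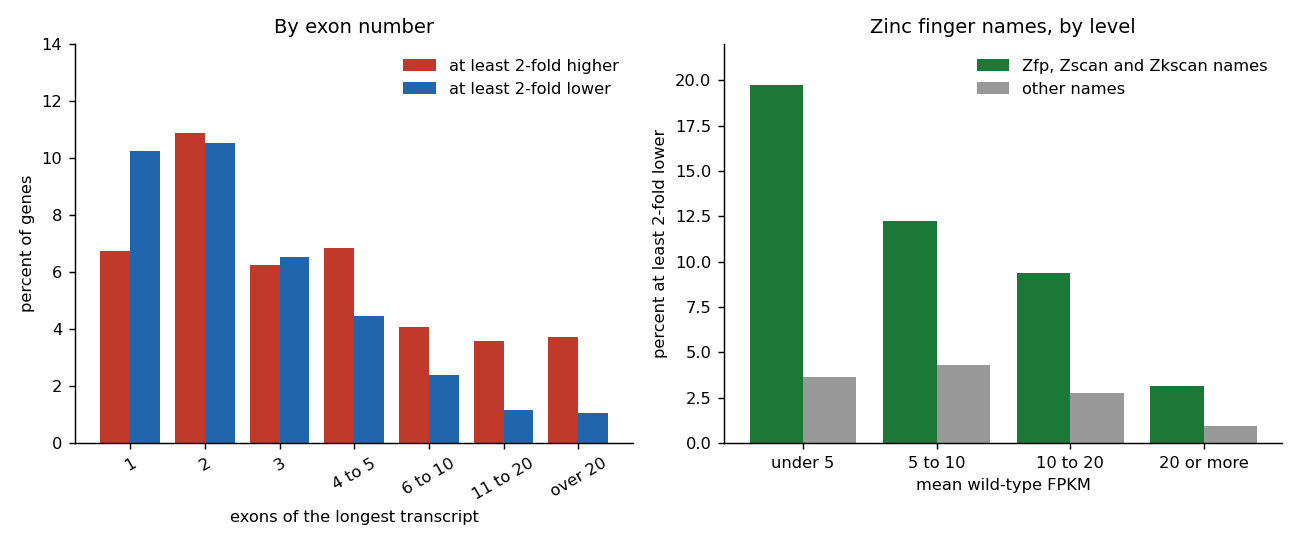
Left, percent of genes at least 2-fold higher (red) and lower (blue) with KCl in wild type by the number of exons of the longest transcript, from 10.3% lower at 1 exon to 1.03% above 20. Right, percent at least 2-fold lower among zinc finger names (green) and other names (grey) by mean wild-type level, from 19.7% and 3.62% under 5 FPKM to 3.13% and 0.925% at 20 FPKM or more.

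Chromatin and ribosomal genes showed small differences. Of 35 histone and chromatin genes Crebbp, the CREB-binding acetyltransferase gene, was higher (8.48 and 20.6 FPKM), and its relative Ep300 stood at 14.7 and 25.3. Smarca2, the other ATPase of the BAF complex, stood at 63.6 and 36.2. The list's median of 0.08 turned negative on division by the column total (-0.02) and on centring to the ribosomal genes (-0.25). Of 39 measured ribosomal protein genes 37 had ratios above 0 as deposited, with a median of 0.34, and the 2 past 2-fold were Rpl5 (11.7 and 28.1) and the low Rpl28 (0.09 and 1.21), both from families with many processed copies. None of 13 reference genes lay past 2-fold, and their median of 0.21 turned to -0.16 on centring to the ribosomal genes. Small RNA genes held a part of both tails: of 218 retained 59 were higher and 42 lower, beside 5.07% higher and 3.31% lower among all genes.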

How the data were processed

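RNA sequencing of 4 libraries, 1 per group, was used. The authors deposited 1 table of FPKM values for 22552 genes. The labels do not name the unit; FPKM was read from the values, which are not whole numbers. Reads were aligned with TopHat 1.3.2 to mm9, per the submitters' processing notes. For the program behind the gene values, its annotation and any scaling between libraries, the sources used here give nothing. Each column was matched to its sample by the sample's description, and no column was left without a sample.

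The 13248 genes that reached 1 FPKM in any library were kept, and log2 ratios were taken after adding 1 to both values, which understates the ratio of low genes. A fold given for a gene is the plain ratio of its deposited values. Its 95% interval is an exact binomial interval on fragments approximated from the table and covers counting error only. With 1 library per group there is no test, and genes were counted at 2-fold. The members, gene lists (43) and naming rule were chosen with earlier results of these data known. The rule named the 6 genes given with the comparison, the 25 highest and 25 lowest ratios among genes with 5 FPKM in the higher library, up to 6 members per list with the largest ratios and the most abundant member, the 10 largest gains and losses and the 5 genes nearest each side of 2-fold. List members named outside the rule were chosen after their values were seen, as were 2 added lists, the zinc finger names and the exon, length and motif classes. Sex-linked genes were left out of the rule. Some genes the rule takes are not reported here. GENCODE M21 gene models and RefSeq promoter windows (GRCm38.p6) differ in build from the values and were matched by symbol.

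Alternatives covered pseudocounts, filters, 5 scalings and the genes counted. The following choices were added after seeing the data: a size of 4-fold, genes with exactly 1 promoter window, and exon shares at 5 FPKM or more. Python 3.11.15 was used with NumPy 2.4.6, pandas 2.3.3, SciPy 1.17.1 and matplotlib 3.10.9. For the wild-type comparison the steps were run on simulated data of 9078 genes, fewer than the 13248 described. These had at least 5 FPKM in wild-type basal, and counting error was the only noise simulated. Genes under 5 FPKM in basal, where counting error weighs most, were not simulated. All 100 genes raised 4-fold and all 100 genes lowered to 0.25 of basal were recovered, and 0 unchanged genes passed 2-fold. Sizes nearer to 2-fold were not tested. The spread between cultures was not tested either, since each group is 1 library, and the 0 is not a count for the deposited libraries.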

Additional observations from a re-analysis of the deposited data

Results flagged for a closer look

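Lrrtm1, which encodes a postsynaptic adhesion protein that binds neurexins, went opposite ways in the 2 genotypes. In wild type it had 40.4 FPKM in the basal library and 75.7 in the KCl library, a log2 ratio of 0.89, and at 39.7 and 29.7 in the cKO, a log2 ratio of -0.41, so that the cKO ratio minus the wild-type ratio was -1.30. It was singled out because, among the genes named, it was the only one whose ratio was at least 0.25 above 0 in wild type and at least 0.25 below 0 in the cKO or the reverse. With 1 library per group the difference was not tested.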

How the results depend on the processing

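The count of genes at least 2-fold higher was 672 as reported, 1029 with 0.1 FPKM added to both values, 261 with 5 added, 363 when centred on the ribosomal genes, 1124 when centred on the presynaptic genes and 114 at a size of 4-fold, a size chosen after seeing the data. The count of lower genes was 439 as reported and 838, 78, 1128, 262 and 20 under the same settings. The share of higher genes among those past the size was 60.5% as reported, 77.0% with 5 FPKM added, 50.2% by the column total, 24.3% centred on the ribosomal genes and 81.1% centred on the presynaptic genes. Fewer genes are counted by construction with a larger amount added or a larger size, and the cause of the shifts between scalings was not tested. Scaling by the median ratio (663 higher, 448 lower), the upper quartile (598 and 511) or the column total (563 and 559) kept the counts within 1.5 times. So did a filter at 5 FPKM (504 and 325) and leaving out small RNA and clone genes (574 and 358). Without a filter the counts stay the same by construction, since a gene under 1 FPKM throughout cannot reach 2-fold after 1 is added. Among the 168 named genes past 2-fold, 121 stayed past 2-fold under each of the 5 scalings, which are too small to turn the sign of such a gene. Centring on the ribosomal genes changed list counts. Higher genes numbered 2 in place of 5 in the clock list and 3 in place of 5 for synaptic plasticity effectors. The count was 1 in place of 3 for p53 targets and for cholesterol synthesis, 2 in place of 4 for astrocyte genes and 1 in place of 2 for microglia markers. For MAPK feedback it was 6 in place of 9, for actin and contractile genes 7 in place of 10 and for heat shock genes 4 in place of 6. For G protein regulators it was 1 in place of 4 and for potassium channels 0 in place of 2. Lower genes numbered 6 in place of 1 for presynaptic genes and 5 in place of 1 for axon guidance. They numbered 4 in place of 1 for sodium and calcium channels and 3 in place of 0 for calcium pumps. Other lists moved too. No replicate could be left out, since each group is 1 library. No paired analysis was possible because each group has a single library with the same number, so the groups share fewer than 2 replicate numbers. Counting at about 21450000 and 21950000 fragments limits genes near 1 FPKM most, where 1 FPKM on a transcript of 2000 bases is 42.9 to 43.9 fragments, and the spread between cultures is unknown.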

Other observations

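Regulators of G protein signalling, which shorten the signal of G protein-coupled receptors, were given above only in part. Of 18 measured genes of this list 4 were past 2-fold upward in wild type and none downward, and their median log2 ratio of 0.04 turned to -0.07 by the column total, -0.03 by the upper quartile and -0.32 on centring to the ribosomal genes. Rgs16 had 1.91 FPKM in the basal library and 6.44 in the KCl library, and 1.51 and 19.8 in the cKO pair. Rasl11a, a small GTPase gene, stood at 1.71 and 5.29, while the related Rasl11b stood at 19.6 and 11. Rgs4, which is abundant in cortical neurons, stood at 14.3 and 27.0, just within 2-fold.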
